A study of Mus musculus with 20 samples.

Results

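Mouse dorsal root ganglion (DRG) neurons were driven to fire long bursts of 90 action potentials once every 5 min, and gene expression after 5 hr of this pattern was compared with expression after 2 hr. DRG neurons are the sensory neurons that carry touch, pain and temperature signals from the body to the spinal cord. The comparison takes the samples titled D1 to D4 (90/5 for 5 hr) against those titled C1 to C4 (90/5 for 2 hr), which are 8 of the 20 samples of the series, 4 per duration. All cultures were prepared from NIH Swiss mouse embryos at embryonic day 13.5, grown for weeks with nerve growth factor after an early treatment with an inhibitor of dividing cells, and stimulated across a barrier by biphasic pulses of 6 V lasting 0.2 ms. The other samples were unstimulated neurons and neurons given 18 action potentials every 1 min (18/1) for 2 hr or 5 hr, and they enter here through the shared estimate of the spread and as reference levels. The samples of a condition are described as biological replicates, and 5 cultures were pooled per condition. How the cultures were divided among the 4 samples is not given in the sources used here.

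Firing opens voltage-gated calcium channels in a neuron, and calcium-dependent kinases then switch on immediate early genes such as Fos, Npas4 and Nr4a1 through factors already bound to DNA, among them CREB at the cAMP response element. Many of these genes encode transcription factors, which act on a later set of effector genes for growth, synapses and signalling. Their transcripts are short-lived as a rule. The question put to the data was which genes and functions rose or fell between 2 hr and 5 hr of the same pattern.

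Each Agilent array carried 2 samples of the same condition, 1 in the colour Cy3 and 1 in Cy5. Arrays 7 and 8 held 90/5 2 hr and lay on slide 2 together with 18/1 5 hr, and arrays 9 and 10 held 90/5 5 hr and were the only arrays on slide 3. Slide and duration therefore cannot be told apart. The labels do not settle which colour held which 2 hr sample, so samples are named by array and colour. Levels are given as log2 of the normalized signal, and differences as log2 of 5 hr over 2 hr. Array 8 stood apart from array 7, with 3138 and 6476 spots marked as non-uniform in its 2 colours against 45 and 139, and 1414 and 2350 saturated spots against 870 and 840. Arrays 5 and 6, which held 18/1 5 hr on the same slide, had 5319 to 14642 non-uniform spots. On arrays 9 and 10, 37 to 85 spots were non-uniform and 0 were saturated. The brightest spot read 113900 to 506700 on these arrays and 65530 on all others, so saturation was counted on different scales and bright genes were capped at 2 hr only. The ratio of signal to background at the median spot was 3.64 to 6.71 at 2 hr and 2.66 to 4.91 at 5 hr.

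The cultures carried the markers of DRG neurons at both durations. Of 28 such markers, 24 passed the spot filter in the 8 samples, among them Prph, Pou4f1, Isl1 and Scn10a. Of these 24, 0 were called by limma or had an unadjusted p under 0.05, against 7.47% and 21.4% of all genes. With the spot filter in all 20 samples, 22 were tested, 0 were called and 1 had an unadjusted p under 0.05. Against array 8 alone, 2 of these 22 were called higher and 1 lower, where 27.4% of all genes were called. Their summed level ranged from 19.53 to 19.80 at 2 hr and from 19.33 to 20.14 at 5 hr. The growth protocol in the labels names spinal cords as the source. Of 8 markers of spinal cord cells, only Slc18a3 passed the filter, at levels of 6.96 to 8.83, and it was well above background in only 2 of the early samples. Fibroblast markers moved with array 8: their summed level was 15.47 and 15.19 on array 7, 16.83 and 16.95 on array 8 and 15.12 to 16.20 at 5 hr. Of the 12 measured fibroblast markers, 0 were called by limma or had an unadjusted p under 0.05. With the spot filter in all 20 samples, 6 were tested, and 2 of these were called lower against array 8 alone. In bulk samples, fewer cells of a type and less RNA per cell cannot be told apart.

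Of the genes known to respond to firing, few were called different between 5 hr and 2 hr, and most differed by under 0.5 log2 units. Of these genes, 33 passed a filter in all 20 samples that asked for signal and left out non-uniform spots, and 43 passed on signal alone. The genes were therefore taken from a limma fit whose filter applied only to the 8 samples compared. That fit tested 14808 genes and called 1106 of them (7.47%) at an adjusted p under 0.05, 635 higher (4.29%) and 471 lower (3.18%) at 5 hr. Of 64 immediate early transcription factors and activity-regulated effectors on the array, 55 were measured and 1 was called, Ier3. The differences of the 55 had a median of 0.17, against 0.10 over all genes of that fit, and 40 of them lay above 0. In 43 of the 55 the difference was under 0.5 in size. The share of all genes under 0.5 was not counted, and with the filter in all 20 samples their differences had an SD of 0.65. The samples of the durations did not overlap for 6 of the 55, against 20.4% of all genes of that fit. In the fit with the stricter filter, 33 of these genes were tested and 0 were called by limma, where 933 of all 10355 genes (9.01%) were called. At an unadjusted p under 0.05 there were 2 of the 33, against 23.3% of all genes, and the methods' t-test without adjustment called 5, against 20.2% of all genes.

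Npas4, an activity-dependent transcription factor of neurons, had levels of 12.67, 13.60, 13.09 and 12.76 at 2 hr and of 12.20, 13.28, 14.22 and 13.14 at 5 hr, in the order of arrays and with Cy3 before Cy5. The ranges overlapped, and every one of these samples was far above the unstimulated mean of 7.41. The difference was 0.18 with a 95% interval from -0.98 to 1.34. Fos, a subunit of the AP-1 transcription factor, had levels of 10.82, 11.82, 12.15 and 12.17 at 2 hr and of 11.61, 11.87, 11.21 and 11.70 at 5 hr, with an unstimulated mean of 7.26. All of the late samples fell inside the range of the early ones, and the difference of -0.15 had an interval from -1.01 to 0.72. Nr4a1, an orphan nuclear receptor, had levels of 12.75, 13.59, 13.11 and 12.89 at 2 hr and of 13.18, 13.86, 14.24 and 14.05 at 5 hr. Its difference was 0.75 with an interval from -0.10 to 1.59 (limma, adjusted p = 0.30), and 3 of the late samples lay above all early ones.

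In all, 10 of the 55 genes had a mean at 90/5 2 hr more than 4-fold above unstimulated neurons, and 9 of these were also more than 4-fold above them at 5 hr. The exception was Nfil3, a repressor of the bZIP family, which had levels of 12.41, 12.77, 13.26 and 13.82 at 2 hr and of 12.002, 12.11, 12.67 and 12.26 at 5 hr. Its difference of -0.80 was not called (limma, adjusted p = 0.24), and the samples overlapped. Rgs2, which shortens signalling by G proteins, had levels of 13.75, 13.68, 13.50 and 13.75 at 2 hr and of 14.15, 14.19, 14.17 and 14.24 at 5 hr. The late samples of Rgs2 were above all early ones, but the difference of 0.52 was not called (limma, adjusted p = 0.42). Its SD was 0.12 at 90/5 2 hr and 0.036 at 90/5 5 hr. It was 0.12 in unstimulated neurons, 0.37 at 18/1 2 hr and 0.94 at 18/1 5 hr. The fit pools the spread of all conditions, so the SE of 0.35 for Rgs2 also holds that of samples not compared here. Among the other genes of this group, the differences were 0.47 for Egr1, 0.21 for Egr4, 0.39 for Nr4a2, 0.17 for Socs3 and 0.40 for Areg, and the interval of each included 0. None of these values shows that levels were equal: the 95% intervals of 22 of the 55 genes lay within 1 log2 unit of 0, a 2-fold change, and those of 54 within 2 units.

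**Figure D1:**
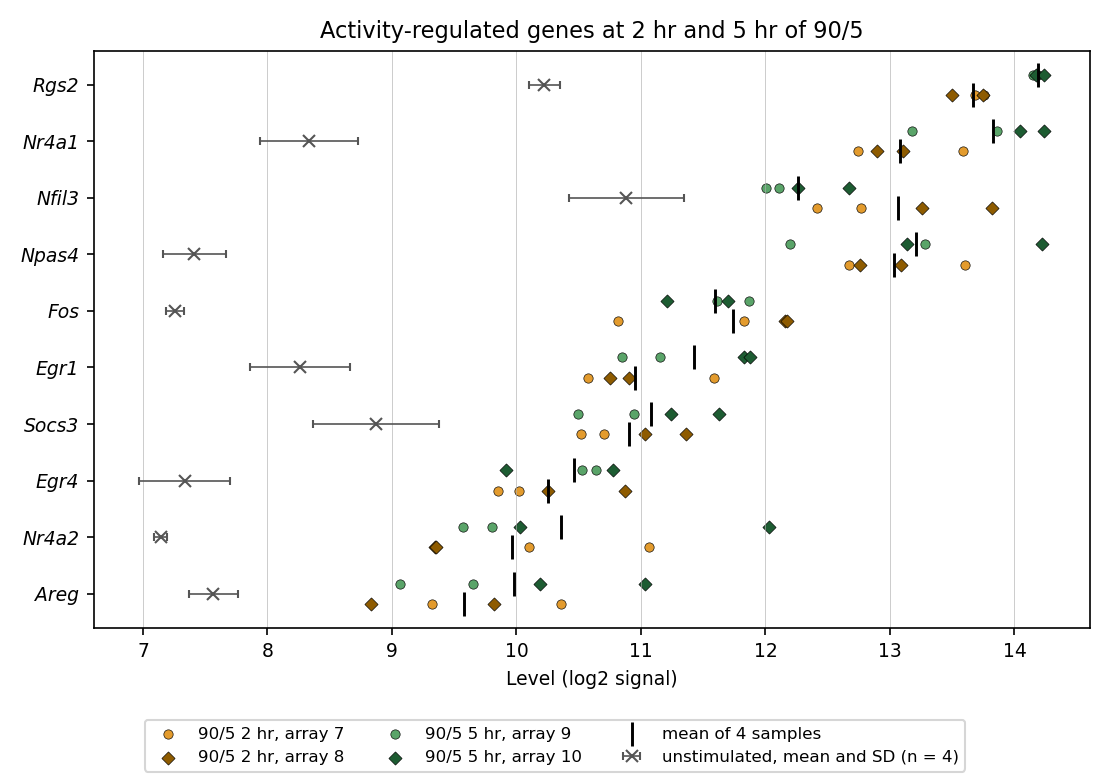
Levels (log2 signal, horizontal axis) of the 10 activity-regulated genes whose mean at 90/5 2 hr was more than 4-fold above unstimulated neurons, with a point for each of the 8 samples, bars for the means of 4 samples, and crosses with error bars for the mean and SD of 4 unstimulated samples. The points of both durations lie close together and to the right of the crosses; for Nfil3 and Fos the 5 hr mean is the lower one.

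Ier3, an early response gene that acts in cell survival, had levels of 12.59, 12.35, 11.97 and 11.69 at 2 hr and of 13.66, 13.20, 13.59 and 13.68 at 5 hr. All late samples were above all early ones, and the difference was 1.38 ± 0.32 (SE; limma, adjusted p = 0.011). Ier3 was at 12.01 in unstimulated neurons, inside the range at 2 hr. Fosb, an AP-1 subunit, and Junb, its partner, also had late samples above all early ones, with differences of 0.63 and 0.90 that were not called (limma, adjusted p = 0.24 and 0.060), and Junb was well above background in only 2 of the early samples. Maff, a small Maf factor, had a difference of -0.83 (limma, adjusted p = 0.12). Of the effectors, Bdnf, a neurotrophin, had levels of 11.003, 11.51, 12.28 and 12.01 at 2 hr and of 12.002, 12.36, 11.39 and 12.04 at 5 hr, a difference of 0.25. Arc, a protein of synaptic plasticity, differed by 0.04. Vgf, a neuropeptide precursor, had saturated spots at 2 hr, so its measured difference of 0.01 is only an upper limit.

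The promoters of Npas4, Fos and Nr4a1 are shown because these 3 genes stayed far above unstimulated neurons at both durations. Each line gives the 250 bases before the transcription start from RefSeq (build GRCm38.p6), 5′ to 3′ on the gene's strand, with capitals for the letters TGACG, the core of the cAMP response element, or CGTCA, the same on the other strand. Npas4 lies at chr19:4989972-4990221 on the minus strand, Fos at chr12:85473640-85473889 on the plus strand and Nr4a1 at chr15:101266596-101266845 on the plus strand.
Npas4: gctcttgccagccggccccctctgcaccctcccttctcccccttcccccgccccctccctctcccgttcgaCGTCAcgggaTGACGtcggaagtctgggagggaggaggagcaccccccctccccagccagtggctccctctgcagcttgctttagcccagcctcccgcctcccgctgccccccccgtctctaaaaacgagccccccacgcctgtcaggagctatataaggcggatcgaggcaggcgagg
Fos: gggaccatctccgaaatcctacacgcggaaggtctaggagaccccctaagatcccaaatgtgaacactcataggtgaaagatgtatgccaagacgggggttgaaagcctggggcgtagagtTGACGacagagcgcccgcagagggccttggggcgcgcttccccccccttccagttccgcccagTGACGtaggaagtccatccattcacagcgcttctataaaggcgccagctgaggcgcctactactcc
Nr4a1: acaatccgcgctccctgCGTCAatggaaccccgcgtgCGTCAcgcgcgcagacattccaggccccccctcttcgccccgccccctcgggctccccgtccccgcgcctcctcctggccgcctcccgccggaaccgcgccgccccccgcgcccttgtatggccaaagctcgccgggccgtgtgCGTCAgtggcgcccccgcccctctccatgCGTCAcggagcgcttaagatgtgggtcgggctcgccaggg
The window of Npas4 holds 2 such cores, that of Fos 2 and that of Nr4a1 4. The core was present, on either strand, in 17.8% of 32851 promoters of this length, in 14 of the 20 measured immediate early transcription factors with a promoter in the table (70%) and in 7 of 21 activity-regulated effectors (33.3%). Among genes called lower at 5 hr it was present in 27.9% of 265, and among genes called higher in 23.7% of 308. The whole element, TGACGTCA, which contains the core, was present in 1.55% of all promoters in 1 of the 20 immediate early transcription factors, in 4 of the 21 effectors (19%), in 4.53% of genes called lower, in 2.27% of genes called higher and in 0 of the 3 windows shown. A match in these letters is a description and not a binding site.

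Across all genes, limma with Benjamini-Hochberg adjustment called 933 of 10355 genes (9.01%) changed between the durations, 487 higher at 5 hr (4.7%) and 446 lower (4.31%). The risen genes had a median difference of 1.16 and the fallen genes of -1.50, and 337 risen and 372 fallen genes differed by more than 2-fold. All 933 lay on the same side of both arrays of 90/5 2 hr, against 69.4% of all genes. The samples of the durations did not overlap for 94.2% of the called genes, against 19.2% of all genes. Both shares follow in large part from the calls, which rest on the same samples. After removal of the dependence of the signals on probe GC content in every sample, 512 genes were called and 40.0% of them were higher at 5 hr, against 52.2% without this step.

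The array of 90/5 2 hr that was taken for the comparison decided how many genes were called. Against array 7 alone 273 genes were called (2.64%), 69 higher and 204 lower, and against array 8 alone 2834 (27.4%), 1643 higher and 1191 lower. The differences from the mean of 90/5 5 hr had an SD over all genes of 0.52 against array 7 and of 0.89 against array 8, and array 8 differed from array 7, at the same duration, with an SD of 0.66. Genes called against each of these arrays by itself and in the same direction numbered 246 (2.38%), 56 higher and 190 lower, and all of them were among the 933. On the side of 90/5 5 hr, 477 genes were called without array 9 and 261 without array 10, of which 69 were higher.

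**Figure D2:**
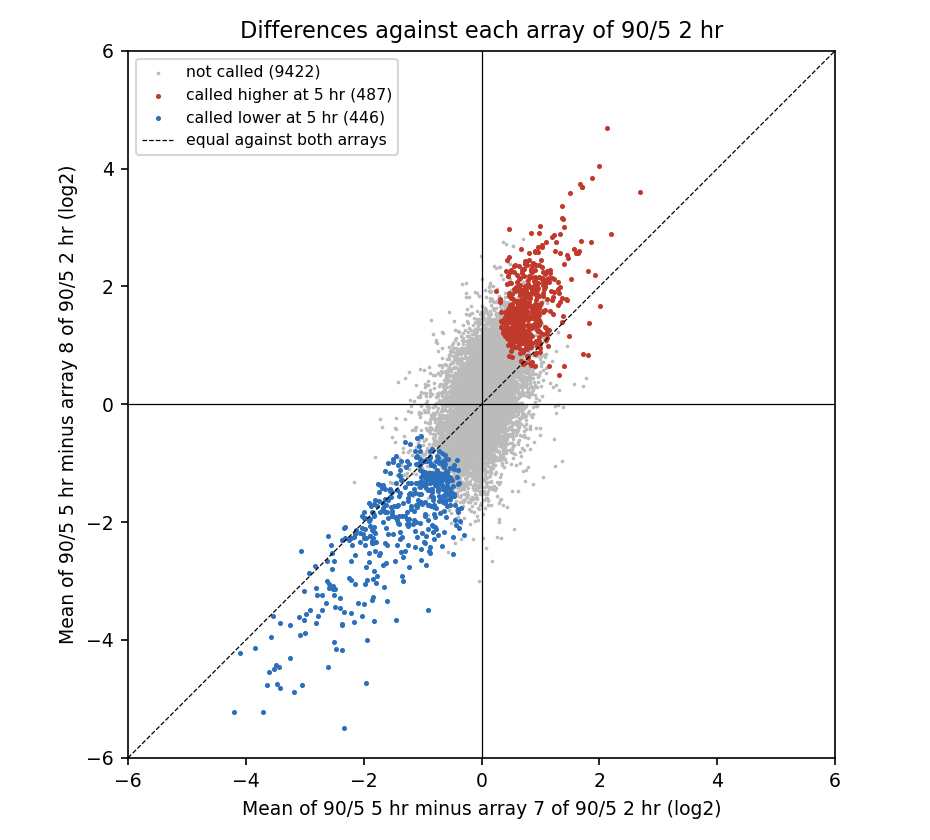
Each point is 1 of 10355 genes, with the log2 difference of the 90/5 5 hr mean from array 7 of 90/5 2 hr on the horizontal axis and from array 8 on the vertical axis. Genes called higher (487, red) and lower (446, blue) lie on the same side of 0 against both arrays, and most red points lie above the dashed line of equal differences.

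The genes that changed between the durations of 90/5 also set slide 2 apart from the other slides. Over the 487 risen genes, the median level was 10.20 to 11.05 in the samples of 90/5 2 hr and 11.73 to 12.10 in those of 90/5 5 hr. It was 11.63 to 11.74 in unstimulated neurons, 11.49 to 11.68 at 18/1 2 hr and 9.78 to 10.28 at 18/1 5 hr. Over the 446 fallen genes, it was 12.72 to 14.02 at 90/5 2 hr, 11.24 to 11.47 at 90/5 5 hr, 11.38 to 11.76 in unstimulated neurons and 13.14 to 14.20 at 18/1 5 hr. Of the 933 called genes, 911 (97.6%) had a mean at 18/1 5 hr, the other condition on slide 2, that was nearer to 90/5 2 hr than to 90/5 5 hr, against 74.3% of all genes. Unstimulated neurons, on slide 1, were nearer to 90/5 5 hr for 850 of them (91.1%), against 71.5% of all genes. The probes of risen genes had a median GC content of 51.7% and those of fallen genes of 36.7%, against 41.7% over all genes, and 184 fallen genes had a saturated spot in the 8 samples against 3 risen ones. The part of slide, GC content and saturation in these calls was not tested.

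**Figure D3:**
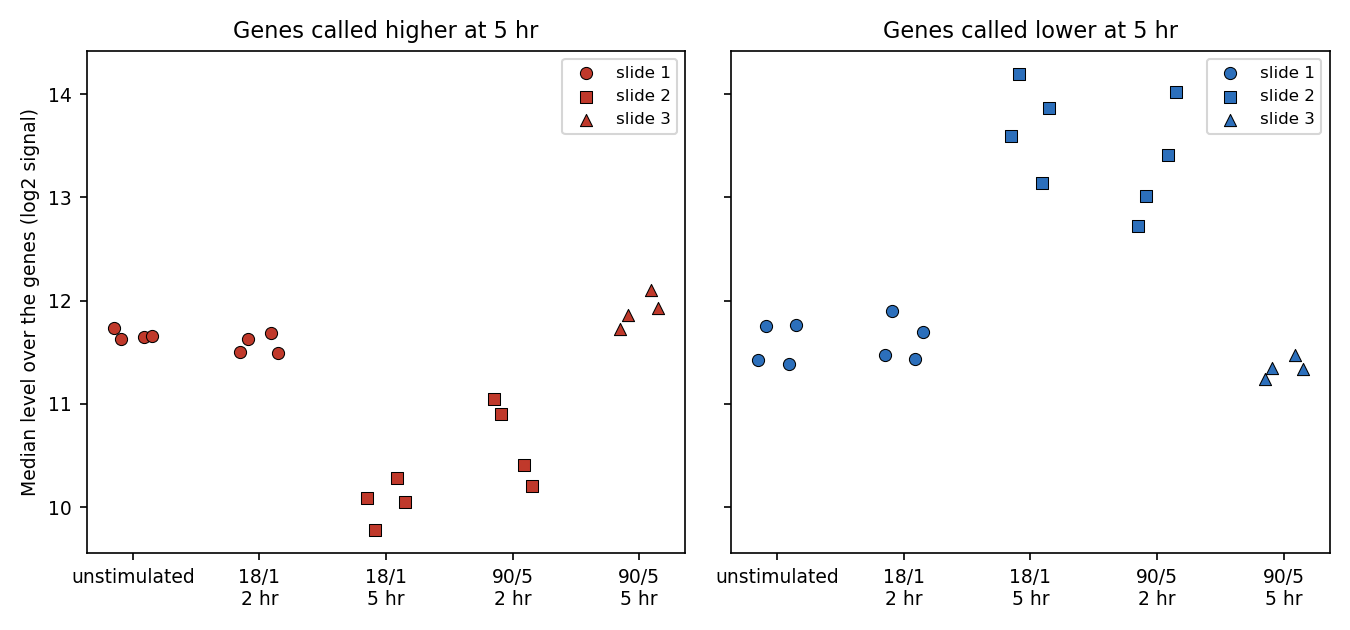
Median level (log2 signal, vertical axis) of the genes called higher (left) and lower (right) at 90/5 5 hr in each of the 20 samples, by condition, with the marker shape for the slide. In both panels the squares of slide 2, which hold 18/1 5 hr and 90/5 2 hr, stand apart from the circles of slide 1 and the triangles of slide 3.

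The 12 leading falls were 5.55-fold to 16.4-fold and had adjusted p values of 6.31e-07 to 0.0013 in limma. They and the 12 leading rises were chosen among genes with no saturated spot and no overlap of samples, ranked by the smaller of their differences from arrays 7 and 8, so the lack of overlap and, in large part, calls against each of these arrays are fixed by the choice. All 12 falls were called against array 7 and against array 8 taken alone. Probe positions are from the array's annotation (mm9). Hs2st1 (chr3:144094574-144094633), the enzyme that adds 2-O-sulfate to heparan sulfate chains, had levels of 11.57, 12.67, 13.40 and 14.29 at 2 hr and of 8.99, 9.57, 8.37 and 9.39 at 5 hr. It fell by 3.91 ± 0.37 (SE; limma, adjusted p = 9.07e-07). Its mean was 9.68 in unstimulated neurons and 13.80 at 18/1 5 hr, so the low samples were those of slides 1 and 3.

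Golt1a (chr1:135219463-135219522), a vesicle transport protein of the Golgi, had levels of 10.59, 11.79, 12.51 and 13.27 at 2 hr and of 7.83, 7.97, 8.09 and 8.13 at 5 hr. It fell by 4.03 ± 0.46 (SE; limma, adjusted p = 6.53e-06), and the spread was wide at 2 hr and narrow at 5 hr. Akap7 (chr10:25003766-25003825), which anchors protein kinase A near its targets, had levels of 12.96, 12.85, 13.60 and 14.27 at 2 hr and of 8.81, 9.35, 10.54 and 9.21 at 5 hr. It fell by 3.94 ± 0.55 (SE; limma, adjusted p = 7.59e-05), with the Cy3 sample of array 10 above the other late samples. Gxylt2 (chr6:100754726-100754785), a xylosyltransferase that extends sugars on Notch receptors, had levels of 12.90, 13.94, 13.62 and 14.51 at 2 hr and of 10.05, 10.76, 9.92 and 10.91 at 5 hr, a fall of 10.1-fold. The Cy5 sample was the higher one on each of these arrays.

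Pot1a, which caps telomeres, had levels of 11.67, 12.79, 12.75 and 13.51 at 2 hr and of 9.21, 9.74, 8.95 and 9.78 at 5 hr, a fall of 9.61-fold with the smallest adjusted p of the named genes (limma, 6.31e-07). Ubn1, a subunit of the HIRA histone chaperone, had levels of 11.78, 12.23, 11.93 and 11.78 at 2 hr and of 9.23, 9.65, 9.75 and 9.199 at 5 hr. Arrays 7 and 8 were alike for Ubn1, with differences of -2.55 and -2.39. The remaining falls were 10.8-fold for Fryl, 8.03-fold for Ralgps1, an exchange factor for Ral GTPases, 7.83-fold for Blcap, 7.18-fold for Igdcc3, an immunoglobulin-type receptor, 7.09-fold for B020031M17Rik and 7.02-fold for Gcgr, the glucagon receptor. Golt1a, Hs2st1 and Gcgr were the falls that moved by over 1.5 times with 1 array left out, to differences of -3.18, -3.05 and -2.02 without array 8 and of -4.88, -4.77 and -3.60 without array 7.

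The 12 leading rises were 3.54-fold to 10.6-fold, with adjusted p values of 2.7e-05 to 0.0035 in limma, and 10 of them were called against each early array alone, which the ranking favours. The exceptions were Prss53 and Gm9258, whose adjusted p in limma was 0.155 and 0.104 without array 8 and 0.0728 and 0.164 without array 10. For Gm9258 the difference was 2.31 with all arrays, 1.08 without array 10 and 3.54 without array 9, so its size rested on array 10. Slc8a3 (chr12:82299156-82299215), a sodium and calcium exchanger that removes calcium from neurons, had levels of 9.78, 10.20, 10.18 and 10.47 at 2 hr and of 11.52, 11.98, 11.99 and 12.49 at 5 hr. It rose by 1.84 ± 0.24 (SE; limma, adjusted p = 2.7e-05), and arrays 7 and 8 gave like differences of 2.01 and 1.67. Its mean was 12.07 in unstimulated neurons and 10.07 at 18/1 5 hr. Car7 (chr8:107072897-107072956), a cytosolic carbonic anhydrase of neurons, had levels of 9.38, 9.67, 8.58 and 8.60 at 2 hr and of 11.0045, 11.12, 11.26 and 11.26 at 5 hr, and rose by 2.11 ± 0.27 (SE; limma, adjusted p = 2.74e-05). The late samples lay within a narrow range, and array 8 was lower than array 7.

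Lcn12 (chr2:25346380-25346439), of the lipocalin family of small-molecule carriers, had levels of 9.58, 9.68, 8.85 and 8.58 at 2 hr and of 12.26, 12.14, 12.41 and 12.45 at 5 hr, a rise of 8.82-fold. Sez6, a membrane protein of dendrites and synapses, had levels of 8.61, 9.10, 8.24 and 8.21 at 2 hr and of 9.72, 10.51, 10.699 and 10.52 at 5 hr, a rise of 3.54-fold. Tnfrsf11a, the receptor RANK, which signals to NF-kappaB, had levels of 9.57, 9.17, 8.54 and 8.07 at 2 hr and of 10.71, 10.62, 11.57 and 10.89 at 5 hr, a rise of 4.32-fold. For each of these genes array 8 lay below array 7, so that the rise was larger against array 8. The other rises were 10.6-fold for Prss53, a serine protease, and 6.55-fold for Pkd1l2, of the polycystin family. They were 6.50-fold for Hipk4, a kinase, and 5.82-fold for Olfr629, an odorant receptor. For Gm9258, Gm11937 and 1700001K19Rik they were 4.94-fold, 4.38-fold and 3.93-fold. Pkd1l2 and Hipk4 were well above background in 3 of the early samples and Gm9258 in only 2, so the folds of these genes are not exact. With the GC trend removed, the difference of Gm11937 was 1.28 in place of 2.13. Against array 7 alone the differences were 2.12 for Prss53, 1.68 for Pkd1l2 and 1.71 for Hipk4, compared with 3.41, 2.71 and 2.70 against both arrays. All 24 named genes had a mean at 18/1 5 hr nearer to 90/5 2 hr than to 90/5 5 hr.

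**Figure D4:**
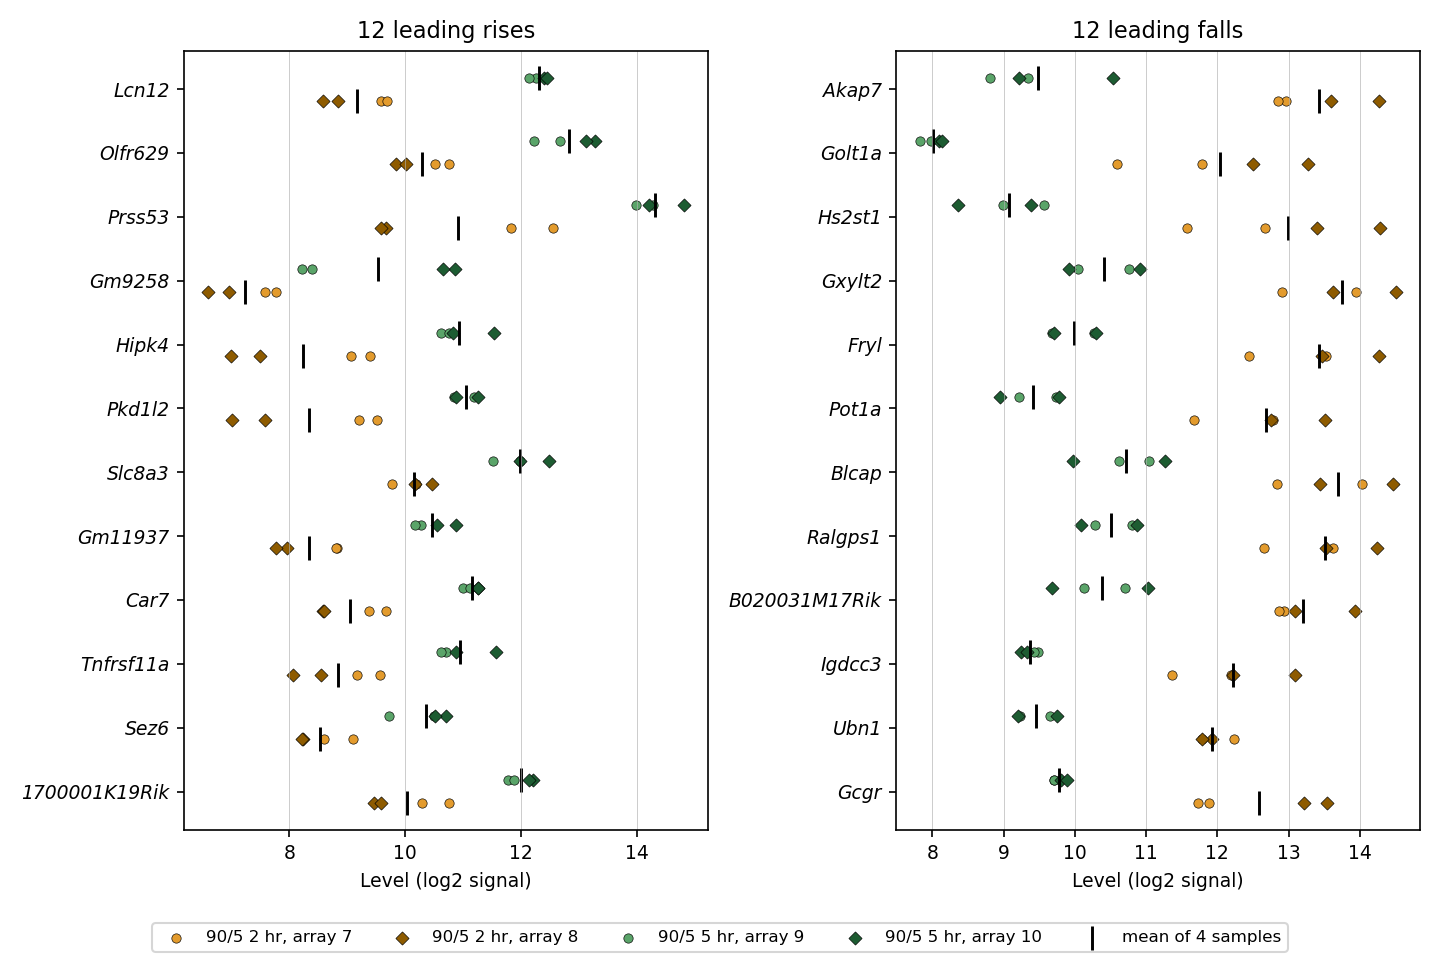
Levels (log2 signal, horizontal axis) of the 12 leading rises (left) and 12 leading falls (right) in each of the 8 samples, with the marker for the array and bars for the means of 4 samples. The 2 hr and 5 hr samples of each gene do not overlap, as the choice of genes asked, and for most rises array 8 lies further from the 5 hr samples than array 7.

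Lists of genes by function held few calls. Of 519 list members tested, 25 were called by limma (4.82%, against 9.01% of all genes), 13 higher and 12 lower. Of these 25, all were called against array 8 alone, 8 against array 7 alone, 14 without array 9 and 6 without array 10. The median difference over all genes tested was 0.06, and the medians of 23 lists with at least 3 members tested are drawn in the plot of gene lists.

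Ion channels of the axon and soma held 3 calls among 33 tested (median 0.14), a share near the 9.01% of all genes. Scn8a, the sodium channel of nodes of Ranvier and axon initial segments, had levels of 12.92, 14.10, 13.97 and 14.64 at 2 hr, with 1 of them saturated, and of 10.41, 11.17, 10.34 and 11.33 at 5 hr. It was at least 8.55-fold lower at 5 hr (limma, adjusted p = 6.45e-06). Kcna4, an A-type potassium channel that shapes spike timing, had levels of 12.12, 13.34, 12.54 and 13.12 at 2 hr and of 10.76, 11.43, 10.46 and 11.37 at 5 hr, a fall of 1.78 ± 0.27 (SE; limma, adjusted p = 0.00018). Both genes were called against each early array alone, and both were near their 90/5 2 hr level at 18/1 5 hr, with means of 14.16 and 13.05. Kcnd1, another A-type channel, rose by 0.88 (limma, adjusted p = 0.042), and was not called against array 7 alone (adjusted p = 0.36). The nociceptor sodium channels Scn9a, Scn10a and Scn11a, which set the excitability of pain fibres, had differences of -0.04, 0.11 and 0.77 and were not called.

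Of 40 genes of Rac, Pak, WAVE and integrin signalling, which moves the actin of growth cones, only Pak4 was called, against 9.01% of all genes. The median of the list was 0.15. Pak4, a kinase downstream of Cdc42, had levels of 15.04, 15.73, 15.44 and 15.08 at 2 hr, with 3 of them saturated, and of 13.27, 13.87, 13.09 and 14.04 at 5 hr, so that it was at least 3.38-fold lower at 5 hr (limma, adjusted p = 0.006). The samples did not overlap, and the call was lost without array 10 (adjusted p = 0.085). Of 13 genes of axon injury and regeneration, only Stat3 was called, a share near the 9.01% of all genes. Stat3, a transcription factor of cytokine signalling, had levels of 12.92, 12.66, 12.11 and 12.24 at 2 hr and of 13.51, 13.83, 14.92 and 13.74 at 5 hr. Its rise of 1.52 ± 0.37 (SE; limma, adjusted p = 0.012) was not called against array 7 alone (adjusted p = 0.14) or without array 10 (adjusted p = 0.12). Gap43 and Gal, other genes of that list, had differences of -0.08 and -0.56.

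Among 21 genes of synaptic adhesion and neuropeptides, Cdh2 was called, where 9.01% of all genes were. Cdh2, the adhesion protein N-cadherin, had levels of 12.16, 11.74, 12.06 and 10.94 at 2 hr and of 12.33, 12.76, 13.45 and 13.17 at 5 hr. Its rise of 1.20 ± 0.34 (SE; limma, adjusted p = 0.030) was lost against array 7 alone (adjusted p = 0.17) and without array 10 (adjusted p = 0.42). Pcsk2, a protease that matures neuropeptides, was called with its brighter probe in the filter on 8 samples, at 1.00 (limma, adjusted p = 0.020), and was not called with the probe that passed in all 20 samples, at 0.17, so its probes disagree. Synaptic vesicle and SNARE genes, which release transmitter, had 0 of 20 called by limma and 3 at an unadjusted p under 0.05. The shares over all genes were 9.01% and 23.3%.

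The NF-kappaB list had 0 of 10 genes called by limma (9.01% over all genes) and 4 at an unadjusted p under 0.05 (23.3% over all genes), with a median of -0.10. In the filter on 8 samples, limma called 0 of 14 (7.47% over all genes) and 2 had an unadjusted p under 0.05 (21.4% over all genes), with a median of 0.045. Nfkbie and Nfkbib, inhibitors that hold NF-kappaB in the cytoplasm, had differences of 0.90 and 0.71 in the filter on 8 samples that were not called (limma, adjusted p = 0.11 and 0.092). Of 9 clock genes, only Cry2, a repressor of the circadian loop, was called, a share near the 9.01% of all genes. Cry2 was lower at 5 hr, with levels of 14.37, 14.38, 16.27 and 15.93 at 2 hr and of 13.49, 13.45, 14.32 and 13.53 at 5 hr. Both samples of array 8 were saturated. With both early arrays Cry2 was at least 1.54 log2 units lower at 5 hr (limma, adjusted p = 0.015). Against array 7 alone, which had no saturated spot for it, the difference was -0.68 and was not called (limma, adjusted p = 0.39). The call was also lost without array 9 (adjusted p = 0.14) and without array 10 (adjusted p = 0.0587). Per1, which firing induces in many neurons, differed by -0.02.

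Housekeeping functions had calls in both directions, as did all genes tested, of which 4.7% were called higher and 4.31% lower. Of 94 genes caught by the names of ribosomal proteins, 4 were called higher and 3 lower (median 0.08). Of those called higher, Rps6kb2, an S6 kinase, and Rps19bp1, a binding partner, are no ribosomal proteins, and the others were Rps18 and Rpl18. None of these 4 was called against array 7 alone (limma, adjusted p of 0.0707 to 0.489), nor were Rps4x (0.156) and Rps4l (0.149), both called lower with all arrays. Rps21, saturated in 3 of the early samples, was at least 2.61-fold lower at 5 hr (limma, adjusted p = 0.0015), and Rps4x, saturated in all 4 early samples, was at least 1.89-fold lower at 5 hr. Of 83 respiratory chain genes, Ndufa9, of complex I, was called higher and 3 were called lower (median -0.01). Ndufa9, with a saturated early sample, was not called without array 8 (limma, adjusted p = 0.0711), array 9 (0.178) or array 10 (0.239). Sdhc, a membrane anchor of complex II, was saturated in both samples of array 8 and at least 2.20-fold lower at 5 hr (limma, adjusted p = 0.003), and Ndufaf1 and Ndufaf8, which assemble complex I and are not parts of it, fell by 1.06 and 1.57. Without array 10 neither was called (limma, adjusted p = 0.212 and 0.21), and Ndufaf8 was not called without array 8 (0.0533). Psmd2 was called higher among 29 proteasome subunits, Hsph1 higher and Dnajb6 lower among 22 heat shock genes, and Phgdh, which makes serine, higher among 17 genes of the unfolded protein and amino acid response. Against array 7 alone Psmd2, Hsph1, Dnajb6 and Phgdh were not called (limma, adjusted p of 0.14 to 0.61).

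Cholesterol synthesis and glycolysis had 0 of 20 genes called each, with medians of 0.16 and 0.15, and the interferon response 0 of 7 and the cell cycle 0 of 8. Of all genes, 9.01% were called. At an unadjusted p under 0.05 in limma these lists had 2, 0, 1 and 3 genes, against 23.3% of all genes. In the filter on 8 samples, 17 cell cycle genes were tested, 6 had an unadjusted p under 0.05 and Mcm3, of the replicative helicase, was called lower, by -0.85 (limma, adjusted p = 0.0205). Of the other cell type lists, with the filter in all 20 samples, Schwann and satellite cells had 0 of 4 called, fibroblasts 0 of 6, macrophages 0 of 3 (1 at an unadjusted p under 0.05), endothelium 0 of 1 (1 at an unadjusted p under 0.05) and genes of unrelated tissues 0 of 1. The summed level of the 2 endothelial markers measured in the 8 samples was 9.53 to 10.84 at 2 hr and 11.79 to 12.51 at 5 hr, with no overlap, and its part in other results was not tested. Slc18a3, the vesicular acetylcholine transporter and the only spinal cord marker measured, was called higher at low signal, with levels of 7.69, 7.80, 7.36 and 6.96 at 2 hr and of 8.36, 8.76, 8.83 and 8.80 at 5 hr. It was called against each early array alone and lost without array 10 (limma, adjusted p = 0.106). Odorant and vomeronasal receptors, which detect odours and pheromones, gave 6 tested genes, of which Olfr629 rose and Olfr173 was called lower, though not against array 7 alone (limma, adjusted p = 0.282) or without array 10 (0.138). In the filter on 8 samples, 45 of these receptors were tested and 6 were called higher and 2 lower, where 4.29% and 3.18% of all genes were. In the same fit Mag, a myelin protein of Schwann cells, was called higher by 0.69 (limma, adjusted p = 0.049) among 12 Schwann and satellite cell markers. Kdr, an endothelial receptor, and Ins2, insulin, were called higher by 2.14 and 2.08 (limma, adjusted p = 0.000195 and 0.00516).

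**Figure D5:**
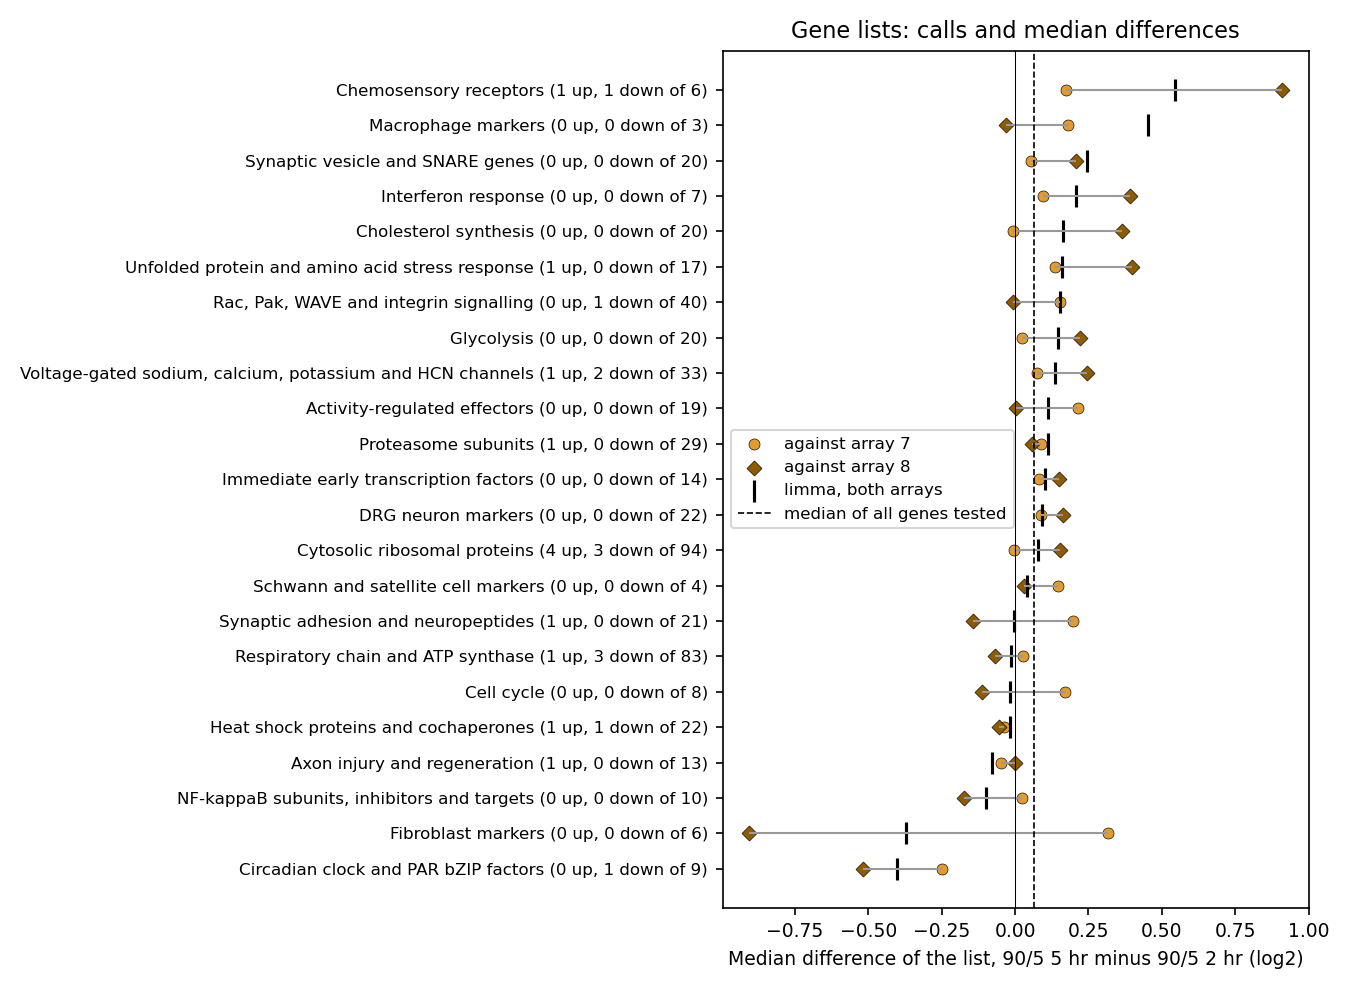
Median log2 difference of each gene list with at least 3 members tested (horizontal axis), against array 7 (circles), against array 8 (diamonds) and in limma with both arrays (bars), with the counts called higher and lower of the members tested beside each name. The dashed line is the median of all genes tested, 0.06, and for fibroblast markers the circle and the diamond lie on opposite sides of it.

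In 22 of the 933 called genes the mean at 18/1 5 hr was nearer to 90/5 5 hr than to 90/5 2 hr, 7 of them higher and 15 lower at 5 hr, and these were looked up after their values were seen. Oprm1, the mu opioid receptor, had levels of 11.46, 12.20, 12.32 and 13.08 at 2 hr and of 13.15, 13.66, 13.43 and 13.97 at 5 hr, with a mean of 13.97 in unstimulated neurons. It rose by 1.29 ± 0.38 (SE; limma, adjusted p = 0.036), with samples just apart, and was not called against array 8 alone (adjusted p = 0.143), without array 9 (0.103) or without array 10 (0.307). Snap23, a SNARE protein of membrane fusion, and Ppm1b, a protein phosphatase, rose by 0.90 and 1.06, and Cdh2, Pdgfa and Kbtbd2 also rose. Without array 10 none of these genes was called (limma, adjusted p of 0.247 to 0.416), and without array 9 only Cdh2 was (0.0129). E2f4, a repressor of cell cycle genes, had levels of 9.56, 9.95, 10.13 and 10.37 at 2 hr and of 8.36, 8.55, 8.27 and 8.25 at 5 hr and fell by 1.65 ± 0.21 (SE; limma, adjusted p = 2.70e-05). E2f4 and Anp32a, an inhibitor of protein phosphatase 2A, which fell by 1.12, were the only genes of this set called against each early array alone. The mean of E2f4 was 8.44 in unstimulated neurons, 8.50 at 18/1 2 hr and 9.16 at 18/1 5 hr, so both conditions on slide 2 lay above the others. Those of Anp32a were 11.51, 11.89 and 12.22, with 12.88 at 90/5 2 hr and 11.75 at 90/5 5 hr, again highest on slide 2. Anp32a was not called without array 9 (limma, adjusted p = 0.0529) or without array 10 (0.0587). Gnb1, a beta subunit of G proteins, and Nasp, a histone chaperone, fell by 0.79 and 0.78. Neither was called without array 9 (limma, adjusted p = 0.12 and 0.205) or without array 10 (0.178 and 0.14).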

How the data were processed

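Gene expression was measured with 2-colour Agilent whole mouse genome arrays, 10 in all, each with 2 samples of 1 condition. The deposited scanner files hold each spot's mean signal and background as intensity values, made by the authors with Agilent Feature Extraction 10.7.1.1 and 10.7.3.1 per the file headers. In R 4.3.3 with limma 3.58.1, the intensities were background-corrected by normexp with an offset of 50, normalized by loess within arrays and by Aquantile between arrays, with control spots at weight 0 in the loess. Loess within an array removes intensity-dependent differences between its samples only. Spots had to be at least 2 times their background and not marked as non-uniform in all 20 samples; spots of a probe were averaged, and the brightest probe of each gene name was kept, which gave 10355 genes. A second fit asked for such spots only in the 8 samples compared (14808 genes). Of the gene names, 86.5% matched a reference symbol.

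All 20 samples were fitted with condition means, a colour term and the array as a random block (correlation within arrays 0.53), and p-values were adjusted by Benjamini-Hochberg over all genes tested, with 0.05 as the threshold. Intervals are at 95%. Values against array 7 or array 8 alone came from the same fit without the other array. With 2 arrays per duration, the number of arrays limits the precision, and the median standard error was 0.31. In data simulated for this comparison over 10355 genes, 50 changed genes per size, 14% of 2-fold, 82% of 4-fold and 94% of 8-fold changes were called, and 8 unchanged genes were called. For 1.4-fold changes 0% were called. The simulated array term was added to a spread that already held differences between arrays. The simulated samples were therefore noisier than the real ones, and these shares are likely too low for the real comparison.

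The named genes were the 12 leading rises and 12 leading falls with a reference symbol, no saturated spot and no overlap between durations, ranked by the smaller of the differences from arrays 7 and 8, and from each gene list the called members and some well-known members not called. The members and lists were chosen with earlier results of these data known. The alternatives tried were other background corrections, normalizations, filters, probes, weights, blocks and tests, a removed GC trend, and samples or arrays left out. Per array, 70 other columns of the files were not used. Promoter sequences are from RefSeq (GRCm38.p6).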

Additional observations from a re-analysis of the deposited data

Results flagged for a closer look

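In the 90/5 5 hr samples, Cry2 had 1 sample far from the others, the Cy3 sample of array 10 at 14.32, whose gap to the nearest sample was 0.906 of the group's range. For Slc18a3 the Cy3 sample of array 9, at 8.36, stood apart in the same way, with a gap of 0.862 of the range. Of 154 groups tested, 2 (1.30%) exceeded Dixon's critical value for 4 samples, where chance alone gives about 1 in 20.

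The change from 2 hr to 5 hr differed between 90/5 and 18/1 by limma's interaction term for 4646 of 10355 genes (44.9%). Of the 933 genes called for 90/5, 918 differed between the patterns, and 916 of these moved in the opposite direction under 18/1. These genes were called for their difference under 90/5, which is itself a part of the interaction term, so a high count is largely built in. All 24 named genes were among them; Hs2st1, for example, differed by -3.91 under 90/5 and by 4.16 under 18/1. Of 33 activity-regulated genes tested, 8 differed (Crem, Nab2, Plk3, Inhba, Maff, Myc, Egr1 and Bdnf). Egr1, an immediate early transcription factor, had differences of 0.47 under 90/5 and -1.71 under 18/1 (limma, adjusted p = 0.0364). For 18/1 the 2 hr arrays lay on slide 1 and the 5 hr arrays on slide 2, and for 90/5 the 2 hr arrays lay on slide 2 and the 5 hr arrays on slide 3, so pattern and slide cannot be told apart in this test.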

How the results depend on the processing

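The count of 933 called genes stayed within 1.5 times under 17 of 33 alternatives. It was 1448 with the filter in either duration, 598 without saturated probes, 2354 without the array block, 311 on array means, 351 with only the 8 samples, 1805 with array quality weights, 2093 by the methods' t-test and 28 by it after Benjamini-Hochberg adjustment, and 512 with the GC trend removed. Without array 7, 8, 9 or 10 it was 2834, 273, 477 or 261, and with 1 sample left out 523 to 1179, the lowest without the Cy5 sample of array 10. Chosen after seeing the data, a fit without 18/1 5 hr called 1713, and GC removal without array 8 called 227. Of the calls, 52.2% were higher at 5 hr, against 64.9% without saturated probes, 24.1% on array means and 30.2% with only the 8 samples. The cause was not tested.

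The count of activity-regulated genes called, 0, was 2 with the filter in either duration, with 2 times the background only, with array quality weights, without array 7 and without 18/1 5 hr, 1 with the filter in the 8 samples and with every probe, 3 without the array block, 5 by the methods' t-test, and 0 to 1 with 1 sample left out. Of 792 values of the named genes over these alternatives, 755 kept the call, 37 lost it, 22 of these by the methods' t-test after adjustment, and 0 turned direction, which the choice of genes favours. With array quality weights Gm9258 moved from 2.31 to 1.42, not called (limma, adjusted p = 0.0974), and Akap7 from -3.94 to -4.61. Median centring moved the median of all genes from 0.06 to 0.11. No paired analysis was possible because the columns of 90/5 2 hr carry no replicate number.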
